A study of Mus musculus with 4 samples.

Results

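The EGF family ligands and their ERBB receptors were followed through the cells of mouse mammary tumors: 7 ligands (Areg, Tgfa, Hbegf, Ereg, Btc, Egf and Nrg1) and 3 receptors (Egfr, Erbb2 and Erbb3), chosen by gene symbol, 10 of the 32285 genes listed in the data. All 10 were listed in every library. The tumors came from 4 mice aged 17 to 18 weeks that all carried the PyMT oncogene and Frmd8fl/fl, an Frmd8 allele with deletable exons. The methods give C57BL/6 as the background of the floxed and PyMT strains, that of the Cre line is not given in the sources used here, and the genotypes were bred as littermates. Mice are numbered by their replicate: 1 and 3 were MMTV-Cre- (Cre-) and kept Frmd8, whereas 2 and 4 were MMTV-Cre+ (Cre+). The MMTV promoter drives Cre mainly in luminal mammary epithelium, so immune and stromal cells of Cre+ mice were not the intended site of deletion. The libraries of sorted cells were made with the 3' v3 chemistry of 10x Genomics, which counts unique molecular identifiers (UMIs), each marking 1 captured RNA molecule, per gene and cell barcode.

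EGF family ligands are made as membrane-anchored precursors, and metalloproteases, above all ADAM17, cut them loose. ADAM17 needs the inactive rhomboid proteins iRhom1 and iRhom2 (genes Rhbdf1 and Rhbdf2), which in turn are held at the cell surface by FRMD8, the protein whose gene was deleted here. AREG, TGFA, EGF, HBEGF, BTC and EREG bind EGFR, NRG1 binds ERBB3, ERBB2 has no ligand of its own and signals as a partner of the others, and ERBB3 has little kinase activity. In the mouse mammary gland, amphiregulin (Areg) is known as the ligand that estrogen receptor-positive luminal cells release in puberty, acting on EGFR in the stroma.

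Areg is shown here with the DNA just upstream of its start, because the results on hormone-sensing cells and T and NK cells turn on it. The 250 bases lie on chr5:91139349-91139598 of GRCm38.p6 (RefSeq, + strand, 5′ to 3′) and end at the base before the transcription start, outside the annotated gene.
Areg upstream: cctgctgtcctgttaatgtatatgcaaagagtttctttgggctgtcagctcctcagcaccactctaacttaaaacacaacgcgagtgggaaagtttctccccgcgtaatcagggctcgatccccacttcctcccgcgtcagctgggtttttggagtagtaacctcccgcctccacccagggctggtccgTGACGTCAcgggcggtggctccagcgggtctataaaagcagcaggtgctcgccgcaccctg
The capitals mark a match to the cyclic AMP response element (TGACGTCA, a palindrome that reads the same on both strands), 61 to 54 bases before the start. A TATA box (TATAAA) lies 31 to 26 bases before the start. Of 32851 RefSeq promoter windows of 300 bases, 1.79% held the TGACGTCA match and 13.6% a TATAAA match on either strand. In the same annotation Epgn, Ereg, Areg and Btc follow one another on chromosome 5. RefSeq promoter windows matched 6 of the 10 genes, and that of Areg is shown.

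The 4 libraries held 112729231 to 157662955 UMIs. Barcodes with at least 1000 UMIs, of which at most 20% were mitochondrial, were kept, 4922, 5918, 5609 and 7123 (Cre- mice 1 and 3, Cre+ mice 2 and 4), with median depths of 12455 to 13072.5 UMIs. Pairs of libraries shared 6 to 16 cell barcodes. Cre+ mouse 4 was deposited with all barcodes and an older Cell Ranger version, so the version cannot be told apart from that mouse. Each cell was assigned to a class by the share of its UMIs in a marker list that held none of the 10 genes (called gating below), and 79, 366, 81 and 135 barcodes with 2 competing classes (Cre- mice 1 and 3, Cre+ mice 2 and 4) were left out of the classes. Every lineage tested below had UMIs of all its own markers. The macrophage list also held Ccr2 and Ly6c2, genes of monocytes, so the class called macrophages can hold monocytes too. No doublet caller was run. Intervals below are exact 95% limits that cover counting error only, and CPM means counts per 1e+06, the UMIs of a gene among that many UMIs of the class in that library.

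Frmd8 itself, checked in epithelial cells, was at 24.2 CPM in each Cre- library, 5.63 CPM in Cre+ mouse 2 and 10.9 CPM in Cre+ mouse 4. Both Cre+ libraries lay below both Cre- libraries, and the fall of 1.46 on the log2 scale (SE 0.43) had an unadjusted p of 0.0211 and an adjusted p of 1.00 in edgeR's quasi-likelihood test. In macrophages Frmd8 was at 25.1, 24.1, 19.8 and 13.5 CPM (Cre- mice 1 and 3, Cre+ mice 2 and 4), and in T and NK cells at 64.4, 59.1, 33.1 and 34.3 CPM, so the Cre+ libraries were lower there too. A 3' count cannot show which exons a transcript holds.

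**Figure D1:**
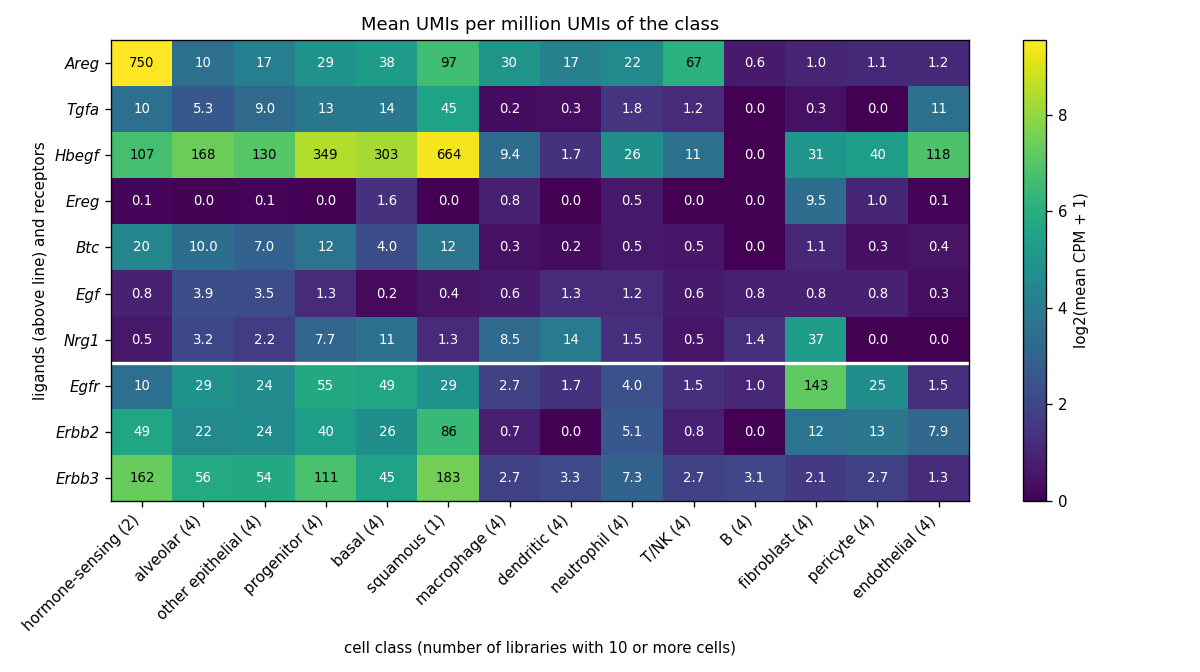
Mean CPM of each gene (rows, ligands above the line) in each cell class (columns), averaged over the libraries with at least 10 cells of the class, colored by log2 of the mean CPM plus 1. Areg reached 750 CPM in hormone-sensing cells, whereas Egfr reached 143 CPM in fibroblasts.

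By the mean over libraries, 8 of the 10 genes had their largest share of UMIs in epithelial cells, and Ereg and Nrg1 had theirs in fibroblasts. For Nrg1 this did not hold in every library. Macrophages held more of its UMIs than fibroblasts in Cre- mouse 1, and epithelial cells held more than fibroblasts in Cre+ mouse 4. The epithelial share averaged 95.5% for Erbb3, 94.9% for Btc, 90.8% for Hbegf, 89.3% for Erbb2, 88.3% for Tgfa and 85.4% for Egf over the 4 libraries. It averaged 66.6% for Areg, with a range from 37.4% in Cre- mouse 3 to 93.6% in Cre- mouse 1. For Egfr it averaged 54.5%, and fibroblasts held 26.5% to 45.1%. These shares depend on how many cells of a class were captured and how deep they were, and the sort gate is not given in the sources used here.

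**Figure D2:**
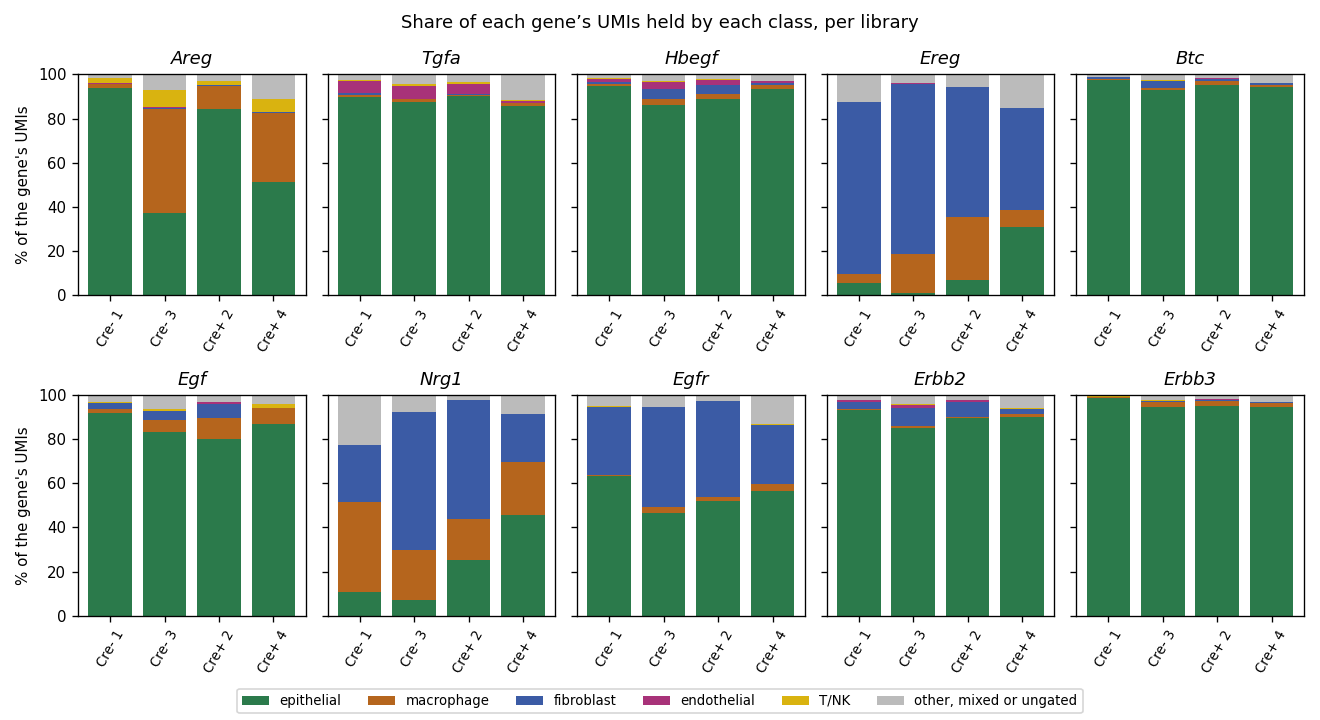
Percent of each gene's UMIs that lay in each class (stacked colors), for each library (bars). Erbb3 and Btc stood almost wholly in epithelial cells in all 4 libraries, while Areg moved between epithelial cells and macrophages from mouse to mouse.

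Areg, the amphiregulin gene, was highest in hormone-sensing cells, the luminal cells gated on Pgr, Esr1, Prlr, Cited1, Foxa1, Tnfsf11, Prom1 and Fxyd2. Its level there was 525 CPM (95% interval 514 to 537) in the 351 cells of Cre- mouse 1 and 975 CPM (943 to 1008) in the 86 cells of Cre+ mouse 2. Cre- mouse 3 had 7 such cells, with 337 CPM (276 to 407), and Cre+ mouse 4 had 0. The mice thus differed first in how many such cells they held. In cells thinned to 1000 UMIs each, 19.1% (15.1% to 23.6%) of the hormone-sensing cells of Cre- mouse 1 and 34.9% (24.9% to 45.9%) of those of Cre+ mouse 2 held an Areg UMI. In fibroblasts, which gave 0% to 0.662% in the same way, Areg was at background.

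Within the hormone-sensing class Areg was uneven. In Cre- mouse 1, 48.4% of the unthinned cells held an Areg UMI, the largest count in a cell was 445, and the 10% of the cells with the most Areg held 73.4% of it. In Cre+ mouse 2, 70.9% of the cells held a UMI and the top 10% held 52.2%. These cells were deep, with medians of 37822 and 33756.5 UMIs against 22221 and 13036 for all epithelial cells of the same libraries. Markers of the other lineages were low in hormone-sensing cells. Macrophage markers made up 0.191 to 1.04 UMIs per 10000 there against 153 to 175 in macrophages. T cell markers made up 0.0401 to 0.0953 against 53.0 to 64.4 in T and NK cells. Fibroblast markers made up 0.413 to 3.72 against 452 to 508 in fibroblasts. Doublets of 2 epithelial cells were not tested.

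The study's limits on cells (200 to 5000 genes and fewer than 30000 UMIs), read here as the cells to keep although the methods can be read as excluding that range, replaced the minimum of 1000 UMIs. Under them Cre- mouse 1 had 126 hormone-sensing cells in place of 351, with 187 CPM of Areg. Cre+ mouse 2 had 34 in place of 86, with 742 CPM. The mean epithelial share of Areg UMIs was then 30.9%, against 66.6% otherwise. The epithelial cells of Cre+ mouse 4 numbered 3595 in place of 3141, and their Areg UMIs 299 in place of 1064. With a minimum of 2000 UMIs and no upper limits, its epithelial cells held 1060. The parts of the upper limits and of the lost minimum in that share were not tested apart.

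Hormone-sensing cells were compared with the mean of the other epithelial subsets (alveolar, basal, progenitor and other epithelial cells), with the mouse as a block, to ask what sets their ligand and receptor makeup apart. Of the 10 genes, 4 were higher and 2 lower in edgeR's quasi-likelihood test at an adjusted p under 0.05. Over all 14508 genes tested, 29.4% were called (15.8% higher and 13.6% lower), and the median log2 change of the 10 genes was 0.62 against -0.01 for all genes.

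The higher genes were 2 ligands and 2 receptors. Areg was 5.76 higher on the log2 scale (SE 0.42, adjusted p = 6.2e-08 in edgeR), and its level was 26.3 and 92.2 times the mean of the other subsets in the 2 libraries. Btc, the betacellulin gene, was at 18.2 and 21.7 CPM in hormone-sensing cells and 1.19 higher (SE 0.23, edgeR adjusted p = 0.000901). Erbb3 was at 186 and 137 CPM and 1.55 higher (SE 0.18, edgeR adjusted p = 7.9e-06). Erbb2 was at 51.5 and 47.1 CPM and 0.88 higher (SE 0.20, edgeR adjusted p = 0.00373), a call that was lost without the block (adjusted p = 0.0968) and without Cre- mouse 1 (adjusted p = 0.134).

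The lower genes were Egfr and Nrg1. Egfr was at 5.24 and 14.9 CPM in hormone-sensing cells and fell by 2.33 on the log2 scale (SE 0.22, edgeR adjusted p = 1.4e-06), so the class richest in Areg held little of its receptor. Its adjusted p was 0.0707 without the block. Nrg1 fell by 3.08 (SE 0.86, edgeR adjusted p = 0.0129), from 3 UMIs in each library, and was not called without either of the mice (adjusted p = 0.103 and 0.068). Hbegf was at 137 and 77.0 CPM there, with an adjusted p of 0.135, and it was called lower under the study's limits on cells and with a stricter gate (adjusted p = 0.00866 and 0.0111).

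**Figure D3:**
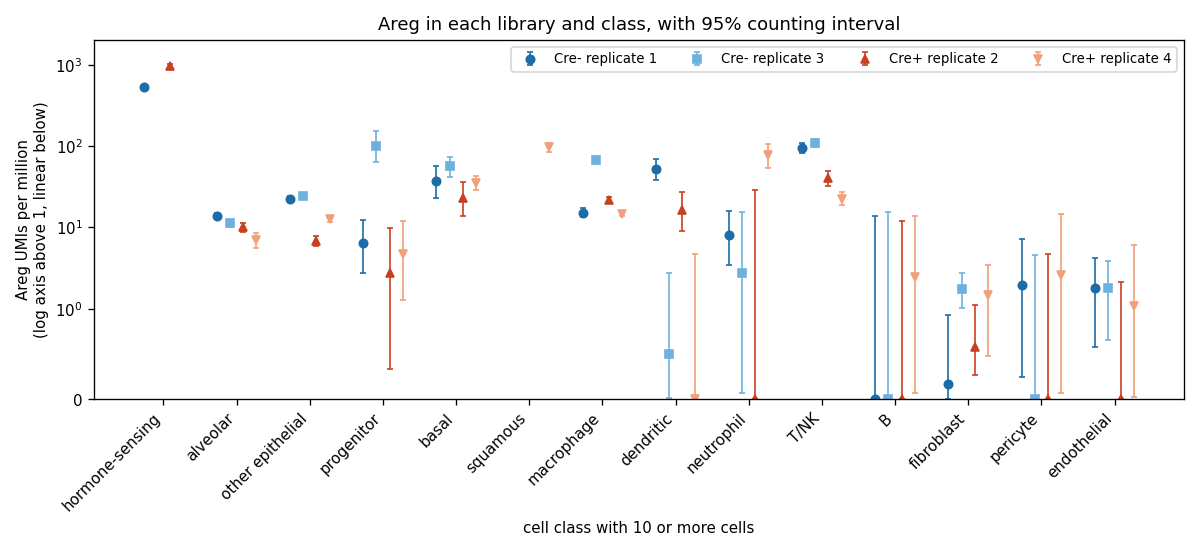
Areg CPM (vertical axis, logarithmic above 1 and linear below) in each class with at least 10 cells (horizontal axis), 1 point per library with its exact 95% counting interval. The hormone-sensing points lie at 525 and 975 CPM, and T/NK cells, basal cells and macrophages carry Areg in all 4 libraries.

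Outside that class Areg was found at lower levels in several cell types. In alveolar cells it was at 13.8, 11.2, 10.0 and 6.94 CPM (Cre- mice 1 and 3, Cre+ mice 2 and 4), and in basal cells at 37.2, 56.1, 22.8 and 35.6 CPM in the same order. Squamous cells were numerous only in Cre+ mouse 4, where 82 cells had 96.7 CPM. After the hormone-sensing class, the ranges of neighbors in the order of levels overlapped, from squamous cells through T and NK cells, basal cells and macrophages. Free RNA in the empty droplets of Cre+ mouse 4 held Areg at 12.4 CPM, above the alveolar level of that library. Fibroblasts held Areg at 0.167 to 1.74 CPM over the 4 libraries. How much free RNA added to the level of each class was not tested.

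T and NK cells carried Areg in every library, at 94.5 CPM (82.7 to 107) and 110 CPM (97.8 to 123) in Cre- mice 1 and 3 and at 40.3 CPM (32.6 to 49.3) and 22.5 CPM (18.8 to 26.9) in Cre+ mice 2 and 4. Few cells made it: 11.6% and 8.09% of the Cre- cells and 4.56% and 3.92% of the Cre+ cells held an Areg UMI without thinning. The epithelial markers in T and NK cells summed to 1.33 to 2.63 UMIs per 10000, against 54.9 to 92.4 in epithelial cells. Macrophage markers summed to 3.83 to 7.98 there, against 153 to 175 in macrophages, which also carried Areg. What such RNA added to the Areg level was not tested.

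The T and NK cells were split by genes chosen after the values were seen, and Areg was unequal between the parts. Cells with a UMI of Foxp3, the master factor of regulatory T cells, numbered 27, 25, 14 and 11 (Cre- mice 1 and 3, Cre+ mice 2 and 4) and held Areg at 687, 602, 306 and 670 CPM, against 42.1, 76.1, 28.8 and 12.8 CPM in the cells without one. Cells with a UMI of Il1rl1, which encodes the IL-33 receptor ST2, numbered 39, 33, 29 and 8 and held 666, 1367, 372 and 1379 CPM. The Il1rl1 cells carried 42.4% to 91.8% of the Areg UMIs of the class. Cells with a UMI of Cd8a, the marker of cytotoxic T cells, held 0 to 2 Areg UMIs per library, and cells with a UMI of Ncr1, an NK cell receptor, 2.12 to 8.43 CPM.

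**Figure D4:**
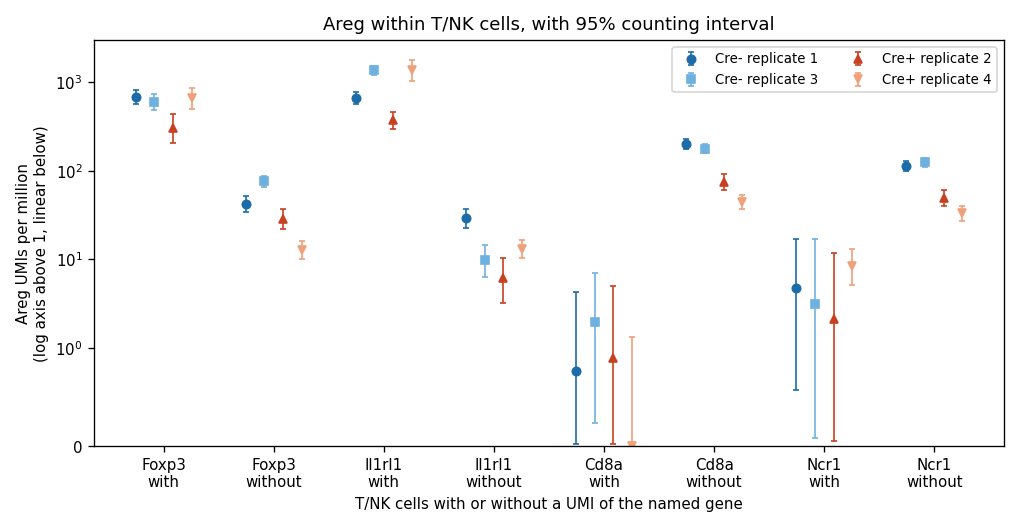
Areg CPM (vertical axis, logarithmic above 1 and linear below) in T/NK cells with and without a UMI of Foxp3, Il1rl1, Cd8a or Ncr1 (horizontal axis), 1 point per library with its exact 95% counting interval. Cells with Foxp3 or Il1rl1 lie between 306 and 1379 CPM, and cells with Cd8a at or below 1.95 CPM.

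Macrophages carried Areg at 15.2, 67.6, 21.6 and 14.8 CPM (Cre- mice 1 and 3, Cre+ mice 2 and 4). Cre- mouse 3 stood apart, and there macrophages held 47.2% of all Areg UMIs. In that library the 254 macrophages with a UMI of Arg1, a gene of alternatively activated macrophages, held 225 CPM and 75.4% of the macrophage Areg, against 21.5 CPM in the rest. The other libraries had 20.8 to 28.1 CPM in Arg1 cells. Arg1 was 1 of 4 genes by which macrophages were split, all chosen after seeing the data. Cells with a UMI of Il1b, an inflammatory cytokine gene, held 85.3%, 89.5%, 79.1% and 87.1% of the macrophage Areg (Cre- mice 1 and 3, Cre+ mice 2 and 4), whereas those with Arg1 held 42.2%, 75.4%, 10.3% and 25.4%. Those with Mrc1, a mannose receptor gene, held 91.7%, 95.5%, 93.1% and 47.6%, and those with Retnla 46.3%, 57.2%, 86.0% and 1.68%. Mrc1 is itself a marker of the macrophage gate. Il1b cells numbered 661, 977, 1048 and 1668, more than the Arg1 cells of each library. The shares of macrophage Areg also depend on how many UMIs each part held. Il1b cells held Areg at 18.6, 84.6, 23.96 and 16.5 CPM in the same order, against 7.41, 24.9, 15.6 and 8.69 CPM in the rest. Mrc1 cells held 15.1 to 86.2 CPM, against 4.15 to 14.5 CPM in the rest. In Cre+ mouse 4 the Mrc1 values were close, 15.1 against 14.5 CPM. Retnla cells held more than the rest except in Cre+ mouse 4 (6.78 against 15.1 CPM). Hormone-sensing markers summed to 0.0727 to 0.520 UMIs per 10000 in macrophages, and macrophages with an Areg UMI made up 3.43% to 8.71% of the class.

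Hbegf, which encodes heparin-binding EGF-like growth factor, was a ligand of epithelium and vessels. Epithelial cells held 173, 127, 133 and 211 CPM and endothelial cells 85.2, 101, 126 and 159 CPM (Cre- mice 1 and 3, Cre+ mice 2 and 4). Macrophages held 5.98 to 11.2 CPM, below the 51.4 CPM of the empty droplets of Cre+ mouse 4, the library for which those were analysed. Dendritic cells held less, 1.09 to 2.27 CPM. Epithelial cells exceeded the mean of the other lineages 4.36 to 7.01 times and endothelial cells 2.38 to 4.89 times, in 4 of 4 libraries each.

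Among the epithelial subsets Hbegf was uneven. Basal cells held 285, 277, 221 and 428 CPM, progenitor cells 228, 585, 111 and 472 CPM and alveolar cells 211, 138, 164 and 158 CPM in the same order. The 82 squamous cells of Cre+ mouse 4 held 664 CPM. In the comparison of basal cells with the other subsets Hbegf was 0.78 higher on the log2 scale (SE 0.24, edgeR adjusted p = 0.0356), and it was not called without Cre- mouse 1, Cre+ mouse 2 or Cre+ mouse 4 (adjusted p of 0.0902 to 0.139). Hbegf was uneven between cells too: the top 10% of epithelial cells held 65.2% to 77.9% of it.

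Tgfa, Btc and Egf were lower-count ligands, with 2582, 2739 and 1118 UMIs in all kept cells. Tgfa, which encodes transforming growth factor alpha, was at 8.11, 7.38, 6.36 and 9.89 CPM in epithelial cells and at 15.0, 10.4, 11.5 and 5.37 CPM in endothelial cells (Cre- mice 1 and 3, Cre+ mice 2 and 4). Pericytes, the mural cells beside the endothelium, had 0 Tgfa UMIs in all libraries, which allows at most 3.65 to 9.63 CPM. Squamous cells of Cre+ mouse 4 had 45.3 CPM.

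Btc was at 11.7, 8.00, 12.1 and 4.87 CPM in epithelial cells, 12.8 to 46.8 times the mean of the other lineages. Egf was at 3.47, 3.33, 2.91 and 3.72 CPM there, mostly in alveolar cells (3.45 to 4.49 CPM) and other epithelial cells (2.75 to 4.16 CPM). Basal cells held 2 Egf UMIs in all, a count too low for a fold. Egf was too low in most lineages to pass the filter of the lineage fit.

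Ereg and Nrg1 had their highest mean levels in fibroblasts. Ereg, the epiregulin gene, had only 464 UMIs in all, and fibroblasts held 77.9%, 77.2%, 58.8% and 46.2% of them (Cre- mice 1 and 3, Cre+ mice 2 and 4). It came from few cells: 8.13%, 5.58%, 4.6% and 3.31% of fibroblasts held a UMI without thinning. Nrg1, the neuregulin 1 gene, was at 19.7, 43.1, 51.1 and 33.8 CPM in fibroblasts, 3.15 to 21.6 times the mean of the other lineages. In all kept cells together, fibroblasts held 1470 of its 3176 UMIs, macrophages 752 and epithelial cells 712.

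Nrg1 was also present in dendritic cells, at 31.8, 8.99, 8.69 and 6.45 CPM, and in macrophages, at 13.1, 6.22, 11.9 and 2.90 CPM, the lowest near the 2.81 CPM of the empty droplets of that library (Cre+ mouse 4). Endothelial cells and pericytes had 0 Nrg1 UMIs in all libraries, which allows at most 1.10 to 3.97 CPM and 3.65 to 9.63 CPM. In basal cells, the myoepithelial layer, Nrg1 was at 7.09, 4.58, 25.2 and 7.60 CPM and was 2.23 higher than in the other subsets on the log2 scale (SE 0.56, edgeR adjusted p = 0.0113), a call lost without Cre- mouse 1, without Cre+ mouse 2, with a stricter gate and without the block (adjusted p of 0.0627 to 0.0818).

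Egfr marked the fibroblasts. It was at 143, 153, 153 and 123 CPM in fibroblasts (Cre- mice 1 and 3, Cre+ mice 2 and 4), and the ranges of the other classes with at least 10 cells all lay lower. Fibroblasts exceeded the mean of the other lineages 13.4 to 21.3 times. Of the fibroblasts, 13.4%, 15.6%, 15.8% and 15.9% held an Egfr UMI after thinning to 1000 UMIs, and 80.9%, 66.0%, 80.3% and 72.8% before it. Macrophages, which lack Egfr for the most part, gave 0.0936% to 0.335% after thinning.

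The top 10% of the fibroblasts held 32.0% to 35.9% of the Egfr UMIs. Pericytes held Egfr at 20.9 to 31.8 CPM and endothelial cells at 1.07 to 2.30 CPM. Of the 12435 genes with at least 10 CPM in a class, those whose log2(CPM + 1) over 14 classes was most like that of Egfr were Ubtd2 (Pearson r = 0.98), Rab40b (r = 0.96) and Ror1 (r = 0.96), a description over class means that share libraries.

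Epithelial Egfr was at 21.1, 23.3, 47.6 and 12.5 CPM (Cre- mice 1 and 3, Cre+ mice 2 and 4). Among the other subsets progenitor cells were at 53.8, 46.1, 97.5 and 24.4 CPM, basal cells at 33.7, 49.3, 92.5 and 19.7 CPM and alveolar cells at 27.9, 22.2, 54.0 and 9.93 CPM. Cre+ mouse 2 was the highest and Cre+ mouse 4 the lowest in each of these. Basal cells were 1.07 higher than the other subsets on the log2 scale (SE 0.16, edgeR adjusted p = 0.000338), and without the block the adjusted p was 0.206.

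Erbb3 and Erbb2 were epithelial receptors. Erbb3 was at 81.1, 40.1, 57.4 and 86.2 CPM in epithelial cells (Cre- mice 1 and 3, Cre+ mice 2 and 4) and at no more than 4.54 CPM in macrophages, dendritic cells, T and NK cells, fibroblasts and endothelial cells. Epithelial cells exceeded the mean of the other lineages 15.4 to 28.8 times. After thinning, 8.07%, 4.07%, 5.76% and 6.78% of epithelial cells held a UMI. Pericytes reached 6.93 CPM and neutrophils of Cre+ mouse 4 reached 29.0 CPM, near the 30.9 CPM of the empty droplets of that library.

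Erbb2 was at 29.8, 16.1, 27.2 and 31.7 CPM in epithelial cells. Unlike Erbb3 it was also found in fibroblasts (13.0, 10.7, 7.87 and 14.8 CPM), pericytes (10.2 to 14.9 CPM) and endothelial cells (5.95 to 9.75 CPM), and macrophages held 0.496 to 0.977 CPM. Dendritic cells had 0 UMIs of Erbb2 in all libraries, which allows at most 1.84 to 4.76 CPM. By pattern, Erbb3 was most like Elf3 (r = 0.99), Ocln (r = 0.99) and Tmem125 (r = 0.98), and Erbb2 most like Aktip, Hspb1 and Rtkn (r = 0.98, 0.98 and 0.97). Elf3 is itself a marker of the epithelial gate, so its pattern over the classes was partly set by the gating.

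The receptor makeup of the classes differed. Fibroblasts held Egfr and Erbb2 with Erbb3 at 1.83 to 2.67 CPM, alveolar and basal cells held all 3 receptors, hormone-sensing cells held Erbb2 and Erbb3 with low Egfr, and macrophages and T and NK cells held none of the 3 above 4.33 CPM.

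Across the 9 lineages with enough cells, 8 of the 10 genes passed the filter on low counts (Egf and Ereg did not). Epithelial cells against the mean of the other lineages gave 7 of these 8 higher and 0 lower, with 55.6% of all 13131 genes called (34.9% higher). The called genes were Areg, Btc, Tgfa, Hbegf, Egfr, Erbb2 and Erbb3, with edgeR adjusted p-values from 1.7e-15 for Erbb3 to 3.0e-05 for Areg, and Nrg1 had an adjusted p of 0.457. The fit averages log levels, and every member was at 0 in some sums, so no fitted fold is given. On the scale of the levels themselves, epithelial cells were above the mean of the other lineages in 2 of 4 libraries for Areg and 1 of 4 for Egfr.

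The other lineages gave fewer called members. Macrophages had 2 of 8 higher, Areg (edgeR adjusted p = 0.000515) and Nrg1 (adjusted p = 0.000238), and 0 lower, with 44.7% of all genes called (31.6% higher; 70.6% of the calls were higher, and 57.8% with RLE size factors or 44.1% with DESeq2). On the level scale each of the 2 was above the mean of the other lineages in 2 of 4 libraries. Fibroblasts had 4 higher and 1 lower, with 56.7% of all genes called (34.1% higher and 22.6% lower). Egfr (adjusted p = 2.5e-20), Nrg1 (1.1e-09) and Erbb2 (4.4e-08) were above the mean of the other lineages in 4 of 4 libraries, whereas Hbegf (0.0184) was above it in 1 of 4 and lost its call without Cre+ mouse 2 or Cre- mouse 3 (adjusted p = 0.0596 and 0.0757), under the study's limits on cells (0.58) and without B cells as a lineage (0.283). Erbb3 was lower in fibroblasts (0.0188), a call that 7 of 13 alternative fits kept. Among others, it was lost without mouse 1, 2 or 4 (adjusted p-values of 0.131, 0.0746 and 0.918) and with DESeq2 (adjusted p = 0.0637).

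Endothelial cells had 3 higher (Tgfa, adjusted p = 5.2e-09, Hbegf, 3.9e-09, and Erbb2, 0.000154) and 2 lower (Erbb3, 0.00277, and Egfr, 0.00396), all in edgeR, with 46.8% of all genes called (26.7% higher and 20.1% lower). Without Cre+ mouse 4 the adjusted p of Erbb3 was 1.00, and without Cre- mouse 3 that of Egfr was 1.00. Of 13 alternative fits, 12 kept the Erbb3 call and 11 the Egfr call.

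In basal cells against the other epithelial subsets, 4 of 10 genes were higher and 3 lower, with 16.7% of all genes called (10.2% higher and 6.5% lower). The 4 were Nrg1, Egfr, Hbegf and Ereg. Ereg rested on 7 UMIs, at 1.77, 0, 3.60 and 1.04 CPM in basal cells (Cre- mice 1 and 3, Cre+ mice 2 and 4) and at most 0.194 CPM in any other tested subset. It could pass the filter on low counts only through the basal sums, so its edgeR adjusted p = 0.00872 is no independent support, and it was not called without Cre- mouse 1 or Cre+ mouse 2 (adjusted p = 0.0506 and 0.107). Erbb3 fell by 1.01 on the log2 scale (SE 0.18, edgeR adjusted p = 0.00103), but not past the threshold without the block (adjusted p = 0.124) or with a stricter gate (adjusted p = 0.403). Btc fell by 1.41 (SE 0.32, edgeR adjusted p = 0.00578; 0.138 under the study's limits on cells), and Egf was lower (adjusted p = 0.0386) on the count given above, losing its call without any single mouse (adjusted p of 0.0575 to 0.179). Basal cells numbered 16, 40, 25 and 140 (Cre- mice 1 and 3, Cre+ mice 2 and 4), so the values of Cre- mouse 1 rest on few cells.

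Of the 5 genes listed for release of the ligands (Adam17, Adam10, Rhbdf1, Rhbdf2 and Frmd8), epithelial cells had 2 higher and 2 lower, macrophages 3 higher and 1 lower, fibroblasts 2 higher and 1 lower and endothelial cells 3 higher and 1 lower. In these comparisons 44.7% to 56.7% of all genes were called. The 2 lower in epithelial cells were Adam17 and Frmd8 (edgeR adjusted p = 5.7e-05 and 0.0029). The epithelial sums include the Cre+ libraries, in which Frmd8 was targeted for deletion, and the part of the deletion in that call was not tested. Adam17, the main sheddase of the family, was at 81.1 to 123 CPM in macrophages and 22.0 to 33.2 CPM in epithelial cells (edgeR adjusted p = 4.4e-14 for macrophages). Rhbdf1 was at 35.9 to 47.8 CPM in fibroblasts and 3.49 to 4.81 CPM in macrophages, and Rhbdf2 at 27.0 to 35.5 CPM in macrophages and 2.78 to 10.7 CPM in fibroblasts. The 2 iRhom genes thus took opposite sides in these classes (edgeR adjusted p = 4.3e-13 and 1.8e-05 in fibroblasts).

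Adam10, the other sheddase, which cuts EGF and BTC, stood out in hormone-sensing cells. It was at 271 to 355 CPM there and at 42.8 to 79.0 CPM in the 4 other subsets, and was 2.27 higher on the log2 scale (SE 0.14, edgeR adjusted p = 6.0e-09). Rhbdf1 fell by 0.64 in the same comparison (SE 0.21, adjusted p = 0.029). Of the 4 other family members tested among the subsets, Nrg4 was 2.30 higher (SE 0.49, edgeR adjusted p = 0.00227) and Nrg2 fell by 2.23 (SE 0.35, edgeR adjusted p = 0.000168).

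Of 16 genes that read out the ERK pathway downstream of the receptors, 13 were higher in epithelial cells than in the mean of the other lineages and 0 lower, with 34.9% of all genes called higher and 20.8% lower. The median log2 change was 1.78 against 0.14 for all genes. Spry4 was at 0 in 12 of the 36 lineage sums and Etv4 in 11, whereas Phlda1 was at 0 in 0 of them. The limit given above for fitted folds of the members thus holds for part of this list. Phlda1, an immediate response gene, was at 1032 to 1941 CPM in epithelial cells and 3.45 higher on the log2 scale (SE 0.17, edgeR adjusted p = 2.4e-17). Endothelial cells had 7 higher and 5 lower (26.7% and 20.1% of all genes), fibroblasts 10 higher and 2 lower (34.1% and 22.6%) and macrophages 6 higher and 3 lower (31.6% and 13.1%).

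Hormone-sensing cells went the other way within epithelium: 2 of the 16 were higher and 8 lower than in the other subsets (15.8% and 13.6% of all genes), with a median of -0.82 against -0.01 for all genes. Phlda1 was at 261 to 407 CPM there and fell by 1.85 (SE 0.18, edgeR adjusted p = 1.4e-06), and Etv5, an ERK-induced transcription factor, fell by 2.30 (SE 0.44, adjusted p = 0.000944). Dusp4, an ERK phosphatase, was 1.64 higher on the log2 scale (SE 0.26, edgeR adjusted p = 0.000175), and Fos was 0.71 higher (SE 0.19, edgeR adjusted p = 0.00897). Of the 9 receptor inhibitors, 2 were higher and 4 lower, beside the same shares of all genes. Among the lower were Lrig3, which fell by 2.44 (SE 0.31, edgeR adjusted p = 2.0e-05), and Lrig1, which fell by 1.56 (SE 0.28, edgeR adjusted p = 0.000501).

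Cre+ and Cre- mice were compared to ask whether deletion of Frmd8 went with other ligand or receptor RNA. No member passed: edgeR called 0 of 16345 genes in epithelial cells (0%), 0 of 13329 in macrophages (0%) and 0 of 12813 in fibroblasts (0%), with 377, 250 and 526 genes at an unadjusted p under 0.05 and 57, 15 and 60 genes called by DESeq2. In T and NK cells, a comparison added after seeing the data, it called 1 of 9844 genes (0.0102%), which was not a member. With 2 mice against 2, an exact permutation test cannot go below p = 0.333. The values below are therefore given per mouse, with the share of all genes of at least 100 UMIs whose mice separated in the same direction. Nothing in the labels says more of the replicates than that each library is a mouse. The coat color gene a (nonagouti), named after its values were seen, had 257 and 153 UMIs over the kept cells of Cre- mice 1 and 3 and 32955 and 8863 in Cre+ mice 2 and 4. The paper reports that coat color told the littermate genotypes apart, yellow for Cre+ and black for Cre-. A difference in genetic background that runs with genotype therefore cannot be told apart from the deletion.

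**Figure D5:**
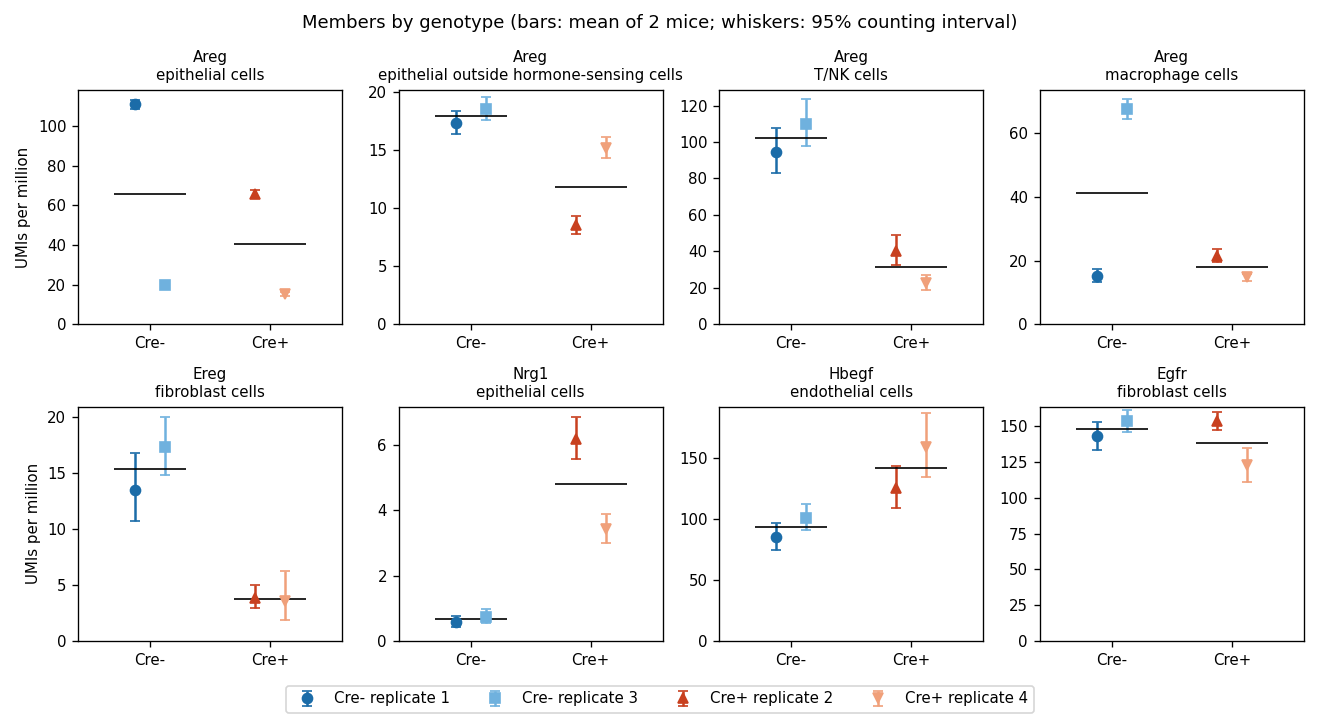
CPM (vertical axes, starting at 0) of selected genes and classes in Cre- and Cre+ mice, 1 point per library with its exact 95% counting interval and a bar at the mean of the 2 mice. Areg in T/NK cells and Ereg in fibroblasts were lower in both Cre+ mice, Nrg1 in epithelial cells was higher in both, and Areg in all epithelial cells overlapped.

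Areg in all epithelial cells was at 111, 19.96, 65.5 and 15.2 CPM (Cre- mice 1 and 3, Cre+ mice 2 and 4). The genotypes overlapped (65.4 ± 64.3 against 40.4 ± 35.6, SD, n = 2 each), and the order of the mice followed the number of hormone-sensing cells (351, 7, 86 and 0). The log2 change was -0.69 (SE 1.01, edgeR adjusted p = 1.00) and turned to 1.01 without Cre- mouse 1. Outside the hormone-sensing gate Areg was at 17.3, 18.5, 8.51 and 15.2 CPM, lower in both Cre+ mice, as were 16.1% of all genes. Of the 9 genes with at least 100 UMIs there, 2 (Nrg1 and Erbb2) were higher in both, as were 12.5% of all genes.

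Areg in T and NK cells was lower in both Cre+ mice, at 102 ± 10.97 CPM (SD, n = 2) without Cre and 31.4 ± 12.6 CPM (SD, n = 2) with it (exact permutation p = 0.333), as were 21.1% of all genes. It fell by 1.64 on the log2 scale (SE 0.29, unadjusted p = 0.000329, edgeR adjusted p = 0.778), and DESeq2 called it (adjusted p = 0.0171). With a mouse left out, which leaves a lone library in 1 genotype, the log2 change was between -1.99 and -1.32. Median depth of T and NK cells was 6730.5, 5743, 7379 and 13412 UMIs (Cre- mice 1 and 3, Cre+ mice 2 and 4), and cells with a UMI of Il1rl1 numbered 39, 33, 29 and 8 of 292, 371, 285 and 383. With only barcodes above 10978 UMIs kept in Cre+ mouse 4, its level was 7.94 CPM. The part of depth and of this makeup in the difference was not tested. In T and NK cells with Foxp3 the mice overlapped.

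Ereg in fibroblasts was at 13.5 CPM (10.7 to 16.8) and 17.3 CPM (14.8 to 19.98) in Cre- mice 1 and 3 and at 3.87 CPM (2.96 to 4.98) and 3.56 CPM (1.84 to 6.22) in Cre+ mice 2 and 4. Both Cre+ mice lay below both Cre- mice, as did 19.3% of all genes. Ereg fell by 2.0 on the log2 scale (SE 0.25, unadjusted p = 0.000388, edgeR adjusted p = 0.653), on 81, 179, 60 and 12 UMIs (Cre- mice 1 and 3, Cre+ mice 2 and 4), and was called by DESeq2 (adjusted p = 0.00628) and by edgeR without the filter on low counts (adjusted p = 1.7e-06). The fibroblast with the most Ereg held 35, 95, 21 and 5 of these UMIs in the same order, and the intervals cover counting error only. Egfr in the same fibroblasts changed by -0.07 (SE 0.17, edgeR adjusted p = 1.00), with 148 ± 7.29 CPM (SD, n = 2) without Cre and 138 ± 21.7 CPM (SD, n = 2) with it.

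Nrg1 in epithelial cells was at 0.584 and 0.739 CPM in Cre- mice 1 and 3 and at 6.18 and 3.42 CPM in Cre+ mice 2 and 4. Both Cre+ mice were higher, as for 12% of all genes. The log2 change was 2.89 (SE 0.50, unadjusted p = 0.00271, edgeR adjusted p = 1.00), and DESeq2 called it (adjusted p = 0.000131). In alveolar cells Nrg1 was at 0.555, 0.469, 8.47 and 3.39 CPM and in other epithelial cells at 0.700, 0.862, 4.16 and 3.04 CPM in the same order. The fibroblast markers in epithelial cells summed to 0.487 to 1.06 UMIs per 10000 over the 4 libraries, against 452 to 508 in fibroblasts, and the empty droplets of Cre+ mouse 4 held Nrg1 at 2.81 CPM.

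The remaining members gave no separation of that kind in epithelial cells: of the 9 genes with at least 100 UMIs there, 8 overlapped between genotypes. Erbb3 changed by 0.32 (SE 0.45) and Egfr by 0.45 (SE 0.59) in epithelial cells, each with an edgeR adjusted p of 1.00. In macrophages, of the 5 genes with at least 100 UMIs, 1 (Erbb3) was higher in both Cre+ mice, as were 5.94% of all genes, and 1 (Hbegf) lower, as were 18.2%. Areg changed there by -1.12 (SE 0.70, edgeR adjusted p = 1.00), and without Cre- mouse 3 the change was 0.38. In fibroblasts Nrg1 changed by 0.47 (SE 0.41, edgeR adjusted p = 1.00), with 31.4 ± 16.6 CPM (SD, n = 2) without Cre and 42.4 ± 12.2 CPM (SD, n = 2) with it.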

How the data were processed

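The values are UMI counts that the authors deposited as counted, not normalized, for each gene in each barcode, from Cell Ranger 6.1.2 (replicates 1 to 3, filtered to cells) and Cell Ranger 4 (replicate 4, all barcodes), per the file headers. The labels name build hg38 while the gene identifiers are mouse, so coordinates come only from RefSeq on GRCm38.p6. The 10 genes and the gene lists were chosen with earlier results of these data known.

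Barcodes with at least 1000 UMIs and at most 20% mitochondrial UMIs were gated into 11 lineages and 5 epithelial subsets. A cell took the class whose marker share was highest relative to that class's threshold, with at least 2 markers detected. The thresholds were 4 to 60 UMIs per 10000, set after seeing the marker distributions. Where another lineage also passed its threshold, a margin of 2 over it was required. No margin applied between epithelial subsets, so a cell past several subset gates took the highest. Counts were summed per library and class with at least 10 cells and tested in edgeR 4.0.16 (quasi-likelihood, TMM, filterByExpr, Benjamini-Hochberg over all genes, threshold 0.05). Classes of 1 library come from the same mouse, so the mouse was a block in the comparisons of classes. Squamous cells reached 10 cells in 1 library and were not tested. Alternatives were DESeq2 1.42.0, other size factors, no filter, no block, each mouse left out, the study's limits on cells (200 to 5000 genes, fewer than 30000 UMIs, read as the cells to keep, without the minimum of 1000 UMIs), at least 2000 UMIs, an order-of-magnitude cell call in replicate 4 (more than 10978 UMIs) and a gate 2 times stricter. Shares of cells with a UMI used cells thinned to 1000 UMIs, which left out 0 cells. Levels in CPM were computed from the counts. Scripts were tested on simulated data. Named genes are the members, Frmd8, up to 2 genes per direction and list, and the 3 genes most similar in pattern. The splits of T and NK cells and macrophages, the comparison in T and NK cells and that outside the hormone-sensing gate were added after seeing the data. Python 3.11.15 and R 4.3.3 were used.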

Additional observations from a re-analysis of the deposited data

Results flagged for a closer look

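The empty droplets of Cre+ mouse 4 (4981956 UMIs in barcodes with at most 100 UMIs), which entered no comparison, held RNA of 9 members above the limit that a count of 0 allows. Their levels were 12.4 CPM for Areg, 3.61 for Tgfa, 51.4 for Hbegf, 2.61 for Btc, 2.21 for Egf, 2.81 for Nrg1, 5.82 for Egfr, 16.9 for Erbb2 and 30.9 for Erbb3. Empty droplets of the other libraries were not analysed here.

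Hbegf went in opposite directions with genotype in different classes, a difference that was not tested. It was 49.0 CPM higher in endothelial cells of Cre+ mice (93.3 ± 11.5 against 142 ± 23.7, SD, n = 2 each), where 15.5% of all genes were higher in both Cre+ mice, and it fell by 3.56 CPM in macrophages and fell by 5.52 CPM in T and NK cells, both near or below the level of the empty droplets.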

How the results depend on the processing

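Most values held: among refits of the member tests 466 kept their direction and side of the threshold, 41 lost a call, 10 gained one and 7 reversed, of which 6 were uncalled genotype differences. Reversals came with a mouse left out: without replicate 1 Areg in epithelial cells (-1.97 to 1.01), without 2 Egfr there (-0.68 to 1.07), without 3 or 4 Erbb3 there (-0.11 to 0.91), without 3 Areg in macrophages (-1.83 to 0.38), without 4 Egfr in fibroblasts by genotype (-0.27 to 0.10) and Erbb3 in fibroblasts against other lineages (-1.18 to 0.11). The cause was not tested.

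Without the replicate block the hormone-sensing comparison called 1895 genes and the basal one 1223 (4272 and 2422 with it), Erbb2, Egfr and Nrg1 lost their calls in the first and Egf (adjusted p = 0.0612), Nrg1, Egfr, Erbb3 and Hbegf (adjusted p = 0.102) in the second, and no lineage count moved by over 1.5 times. The study's limits gave 2018 and 1392, and the stricter gate 759 for basal cells (73.1% higher, against 61.1%). Without the filter on low counts 76.5% of epithelial and 72.3% of fibroblast calls were higher, against 62.7% and 60.1%. Leaving out each mouse gave 1778 to 4612 and 1429 to 1856. No paired analysis was possible because the genotypes share no replicate numbers, so their comparison has no block. Genotype counts were 57, 15 and 60 with DESeq2 in epithelial cells, macrophages and fibroblasts, 37 and 375 without the filter in macrophages and fibroblasts, and 0 to 6, 0 to 1536 and 0 to 90 with a mouse left out. In T and NK cells they were 1 in the fit reported, 6 with DESeq2, 187 without the filter and 32 to 1414 with a mouse left out. With a mouse left out, 1 genotype rests on a lone library assumed to vary like the other genotype.

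Under the study's limits the epithelial share of UMIs was 30.9% for Areg, 70.6% for Tgfa, 79.0% for Hbegf, 87.8% for Btc, 61.7% for Egf, 81.1% for Erbb2 and 89.0% for Erbb3, the fibroblast share was 38.9% for Ereg and 10.1% for Nrg1, and 6.14% of epithelial cells held Hbegf after thinning. The stricter gate gave 85.8% for Tgfa. Without thinning, shares of epithelial cells with a UMI were 11.4% for Areg, 13.8% for Tgfa, 40.9% for Hbegf, 16.8% for Btc, 6.46% for Egf, 33.8% for Egfr, 36.3% for Erbb2 and 50.2% for Erbb3, and of fibroblasts 5.41% for Ereg and 17.1% for Nrg1. Ereg, Egf and Nrg1 are limited by their counts.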

Other observations

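The patterns of the other ligands over the 14 classes were most like these genes, by Pearson correlation of log2(CPM + 1) of class means, a description with no test. Btc followed Tmem30b (r = 0.99), Tmem139 (r = 0.98) and Glt28d2 (r = 0.97). Hbegf followed Actn4 (r = 0.97), Fam114a2 and Dlg1 (r = 0.96 each), and Tgfa followed Plekha7 (r = 0.96), Limk2 and Tlk2 (r = 0.95 each). Ereg followed Hs6st2, Ak1 and Adam33 (r = 0.97, 0.96 and 0.96). The levels of Areg (Tuba8, r = 0.86, Atp13a3 and Usp3, r = 0.83 each), Egf (Gabra4, r = 0.89, Gm35696, r = 0.83, and Wap, r = 0.77) and Nrg1 (Ust, r = 0.82, Gria3, r = 0.81, and Ass1, r = 0.77) were matched less closely. Wap is itself a marker of the alveolar gate, and gate markers were not left out of the search.

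In T and NK cells edgeR called 1 of 9844 genes between genotypes (0.0102%), and it was not a member. The gene, with the symbol a (nonagouti, which sets coat color), had 0 UMIs in both Cre- libraries and 136 and 414 UMIs in Cre+ mice 2 and 4 (edgeR adjusted p = 0.00369). It was named after its values were seen.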
